A study of Mus musculus with 6 samples.

Results

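The genes described here encode the mitochondrial ribosomal proteins, in regenerating corneal epithelium of diabetic and control mice. They were taken as every gene of the deposited expression table whose symbol begins with Mrpl or Mrps and a number, which gave 78 of 14968 genes. By symbol, 49 encode proteins of the large subunit (Mrpl) and 29 encode proteins of the small subunit (Mrps). All mice were C57BL/6 males. The diabetic group had been injected with streptozotocin (STZ), a toxin of insulin-producing beta cells given in repeated low doses, and was studied 16 weeks later, as a chemical model of type 1 diabetes. The control group was made up of their counterparts without diabetes. In both groups the epithelium of the central cornea had been scraped off, and the tissue from the limbus and the healing cornea was collected on the following day. Each group had 3 libraries of polyadenylated RNA, and each library pooled the epithelium of several mice, so that p-values measure the spread between pools.

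Mitochondria carry a small genome of their own, whose few messenger RNAs all encode subunits of the respiratory chain and of ATP synthase. These are translated inside the organelle by a ribosome whose RNAs are mitochondrial and whose proteins are all encoded in the nucleus, made in the cytosol and imported. The mammalian mitoribosome descends from a bacterial ribosome, has lost much of its RNA and has gained proteins with no bacterial counterpart. Its output is needed for oxidative phosphorylation, on which the corneal epithelium draws beside a high rate of glycolysis.

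The values are FPKM, which divide the fragments of a gene by its transcript length and by the number of mapped fragments in the library. The FPKM of the table summed to between 308757 (diabetic replicate 3) and 331926 per library, and 14000 to 14116 genes were above 0, while the depth in reads is unknown. The 8 corneal epithelium markers summed to 13124, 14935 and 15153 FPKM in diabetic libraries and to 13742, 14193 and 13722 FPKM in control libraries. Of these, 7 had a log2 fold change below 0 (median -0.06). Krt12, the keratin that defines corneal epithelium, went the other way (log2 fold change 0.52, adjusted p 0.306), and Krt14, the keratin of basal cells, was lower without overlap (-0.26, adjusted p 0.264). Marker lists of other cells were uneven between libraries. Summed neutrophil markers were 1519, 1169 and 1262 FPKM in diabetic libraries against 772, 620 and 1036 FPKM in control libraries, and summed lens markers were 60.3, 203 and 16.3 FPKM against 11.6, 17.8 and 17.8 FPKM. Summed corneal stroma markers were 380, 398 and 280 FPKM in diabetic libraries and 442, 411 and 437 FPKM in control libraries. Summed erythrocyte markers were 17.9, 9.90 and 22.2 FPKM in diabetic libraries and 40.9, 107 and 43.7 FPKM in control libraries. Summed macrophage markers were 126, 125 and 91.4 FPKM against 85.4, 87.3 and 103 FPKM. Summed conjunctival markers were 1946, 2256 and 2433 FPKM against 1852, 2171 and 1944 FPKM. Such sums follow the most abundant genes. Of 8 macrophage genes 4 had a log2 fold change below 0, and C1qa and C1qc were lower without overlap while Mpeg1 was higher. Most of the conjunctival sum was Krt13 (log2 fold change 0.06), while Krt4 (0.82), Krt19 (0.36) and Muc4 (0.38) were higher without overlap. None of these passed the adjusted threshold. In such bulk samples fewer cells of a type and less RNA per cell cannot be told apart, and the part of other cell types in the results below was not tested.

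Promoter sequences of 69 of the 78 genes were found in RefSeq (GRCm38.p6), with 75 annotated starts. They are shown because many of these genes share short letter strings at their start sites, as housekeeping genes of the mitochondrion often do. The lines below give 100 bases of the transcribed strand, 70 before the RefSeq start and 30 from it. Capitals mark the string CCGGAAG or its reverse complement CTTCCGG, the core recognised by ETS factors such as GABP, or the string AAGATGGC, the core recognised by YY1. Mrpl58 and Mrps22 were chosen as genes with an unadjusted p below 0.05, Mrpl52 and Mrps21 as abundant members of each subunit, Mrps18a because both strings occur in it, and Mrps6 because neither does.
Mrpl58 (chr11:115403682-115403781, plus strand): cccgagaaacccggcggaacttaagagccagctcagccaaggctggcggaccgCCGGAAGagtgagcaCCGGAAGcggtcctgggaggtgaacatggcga
Mrpl52 (chr14:54426839-54426938, plus strand): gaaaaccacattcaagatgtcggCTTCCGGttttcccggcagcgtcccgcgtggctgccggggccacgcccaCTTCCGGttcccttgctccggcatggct
Mrps22 (chr9:98601650-98601749, minus strand): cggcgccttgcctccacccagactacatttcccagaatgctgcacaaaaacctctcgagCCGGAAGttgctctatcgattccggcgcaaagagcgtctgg
Mrps21 (chr3:95871485-95871584, minus strand): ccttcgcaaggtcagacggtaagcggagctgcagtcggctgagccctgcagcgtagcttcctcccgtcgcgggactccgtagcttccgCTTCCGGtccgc
Mrps18a (chr17:46110934-46111033, plus strand): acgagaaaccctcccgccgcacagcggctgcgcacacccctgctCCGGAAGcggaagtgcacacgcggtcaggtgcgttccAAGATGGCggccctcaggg
Mrps6 (chr16:92058266-92058365, plus strand): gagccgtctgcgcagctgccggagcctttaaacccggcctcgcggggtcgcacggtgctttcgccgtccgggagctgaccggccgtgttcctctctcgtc

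Promoters were searched on both strands, from 250 bases before to 50 bases after the start. The ETS string CCGGAAG occurred in 26 of the 69 genes (37.7%), against 20.5% of the 9433 tested genes with a promoter and 9.93% of all 27025 genes with one. The YY1 string AAGATGGC occurred in 12 of 69 (17.4%), against 5.3% of tested genes and 3.19% of all. The NRF1 string GCGCATGC, the core of a factor named for its hold on respiratory genes, occurred in 8 of 69 (11.6%), against 5.96% and 3.05%. The TATA string TATAAA occurred in 5 of 69 (7.25%), against 8.86% and 15.7%. At least 1 of the ETS, YY1 and NRF1 strings was present in 38 of the 69 genes. CCGGAAG and AAGATGGC can share the letters AAG, but 0 sites of different strings shared bases in these promoters, and a match is a description of letters and not of a bound site.

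The strings were not spread evenly along the promoters. Of 31 ETS strings, 23 had their centre within 50 bases of the start, and their median centre was 13.5 bases before it. The median centre of the YY1 strings was 19 bases after the start, and 9 of 12 lay within 50 bases of it. The ETS string was found in 15 of 43 large subunit genes (34.9%) and in 11 of 26 small subunit genes (42.3%). The NRF1 string was found in 7 of 43 large subunit genes and in 1 of 26 small subunit genes. Genes with the ETS string had a median fitted log2 fold change of -0.14 and genes without it -0.09, a description with no test. The medians with and without the string were -0.13 and -0.09 for YY1 and -0.13 and -0.10 for NRF1.

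The 78 genes lie on 17 chromosomes, and chromosome 11 holds the most, with 11. In the GENCODE M21 annotation of GRCm38, 18 of the 78 (23.1%) had a protein-coding neighbour on the other strand that starts within 1000 bases upstream. Of the 12149 genes tested, 10.3% had such an upstream neighbour. Pairs whose start regions overlap, such as Mrpl46 and Mrps11, were not counted. Mrps12, which encodes a protein of the decoding centre, has as its upstream neighbour Sars2, the mitochondrial seryl-tRNA synthetase. Other such neighbours were Psma2, a proteasome subunit, beside Mrpl32, and Helq, a DNA helicase, beside Mrps18c. Length here is that of the longest annotated protein-coding transcript of a gene, which may not be the one expressed. By this measure the 78 genes were short, with a median of 1328 bases (463 to 7300 bases), against 3010 bases over all genes tested.

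All 78 genes had a mean of at least 0.5 FPKM in a group, the limit for testing, so none was lost to it. Their mean levels over the 6 libraries ran between 3.34 FPKM (Mrps35) and 77.8 FPKM (Mrpl52), with a median of 16.4 FPKM. FPKM are per length, so levels can be set side by side between genes. Mean level and transcript length had a Spearman correlation of -0.63 and a Pearson correlation of -0.65 across the 78 genes, a description in which all points share the same 6 libraries and in which length itself enters FPKM.

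The 5 genes with the highest mean level were Mrpl52, Mrpl18, Mrps21, Mrpl54 and Mrpl12. Mrpl52, a large subunit protein without a bacterial counterpart, had 85.0, 77.7 and 67.6 FPKM in diabetic libraries and 73.1, 72.4 and 91.0 FPKM in control libraries. Mrpl18, which in bacteria binds 5S rRNA, had 70.8, 66.1 and 51.2 FPKM in diabetic libraries and 66.4, 64.9 and 77.5 FPKM in control libraries. In both genes the groups overlapped, with control replicate 3 highest and diabetic replicate 3 lowest. Mrpl12, which forms the mobile stalk that recruits translation factors, had 61.7, 46.9 and 46.4 FPKM in diabetic libraries and 49.4, 46.6 and 62.2 FPKM in control libraries. The order among these genes rests on differences that are within the spread of their libraries for Mrpl18 and Mrps21, whose means were 66.1 and 65.2 FPKM.

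The 5 genes with the lowest mean level were Mrps35, Mrpl15, Mrps30, Mrps17 and Mrpl1. Mrps35, a small subunit protein that bacteria lack, had 3.79, 3.26 and 2.75 FPKM in diabetic libraries and 3.12, 3.12 and 4.03 FPKM in control libraries. Mrps17, a counterpart of bacterial S17, had 4.54, 4.02 and 2.41 FPKM in diabetic libraries and 4.04, 3.65 and 5.02 FPKM in control libraries. The groups overlapped in both genes, again with the extremes in control replicate 3 and diabetic replicate 3. Over all 78 genes the highest level was 23.3 times the lowest, although the assembled ribosome holds a single copy of most of these proteins.

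The median level of the 49 large subunit genes was 21.6, 17.8 and 15.2 FPKM in diabetic libraries and 18.9, 16.4 and 22.7 FPKM in control libraries. The median level of the 29 small subunit genes was 14.7, 12.6 and 10.5 FPKM in diabetic libraries and 11.5, 12.8 and 13.3 FPKM in control libraries. The large subunit median was thus the higher one in each of the 6 libraries. By class of protein, the median of the 45 genes with a bacterial counterpart was 21.6, 18.2 and 14.7 FPKM in diabetic libraries and 20.4, 19.98 and 23.2 FPKM in control libraries. For the 31 genes classed as mitochondrial only it was 13.9, 13.6 and 10.7 FPKM in diabetic libraries and 12.9, 13.0 and 13.8 FPKM in control libraries. Mrps18a and Mrps18b were put in this class and their relative Mrps18c in the other, so the line between the classes is not a sharp one. Mrpl55 and Mrps36 were put in neither class.

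**Figure D1:**
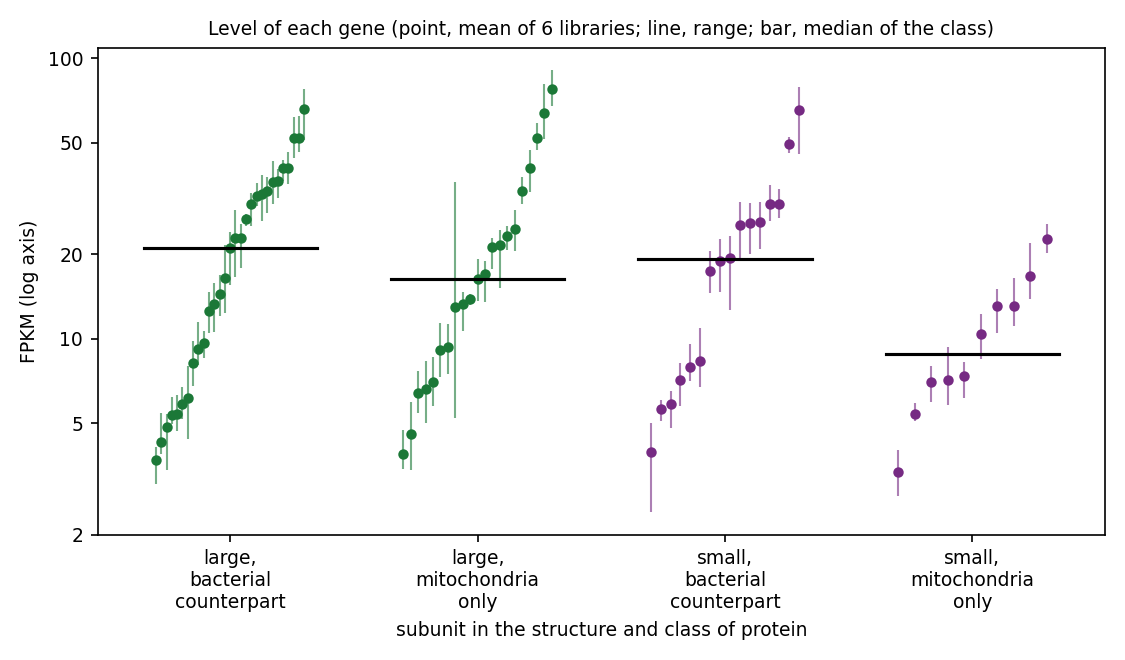
FPKM on a log axis for each gene, in 4 classes (29, 21, 16 and 10 genes from left to right, without Mrpl55 and Mrps36). The classes are by the subunit that holds the protein in the mitoribosome structure and by whether it was classed as having a bacterial counterpart. Points are means of 6 libraries, vertical lines run between the lowest and the highest library and horizontal bars are class medians. The means span 3.34 to 77.8 FPKM and the long line in the second class is Mrpl53. Small subunit proteins classed as mitochondrial only have the lowest median.

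Symbols and structure part ways for a few genes. Mrps30 and Mrps18a carry small subunit names, but their proteins sit in the large subunit of the structure. Mrps18a has 2 relatives, Mrps18b and Mrps18c, whose proteins sit in the small subunit. Mrps18a had 8.45, 6.09 and 5.78 FPKM in diabetic libraries and 6.77, 6.22 and 8.62 FPKM in control libraries. Mrps18b had 16.4, 13.5 and 11.1 FPKM in diabetic libraries and 11.5, 13.0 and 13.3 FPKM in control libraries. The groups overlapped in both. Mrps18c was the most abundant of the family, at 51.1, 52.5 and 47.6 FPKM in diabetic libraries and 45.8, 46.9 and 52.4 FPKM in control libraries.

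The fitted log2 fold changes of the family (diabetic minus control, on log2(FPKM + 1)) were -0.08 ± 0.17 for Mrps18a, 0.10 ± 0.15 for Mrps18b and 0.06 ± 0.10 for Mrps18c (± SE). None passed the test. Mrps36 is named as a ribosomal protein but is known as a subunit of the alpha-ketoglutarate dehydrogenase complex and is not seen in the structure. It had 16.3, 13.8 and 10.5 FPKM in diabetic libraries and 14.5, 15.7 and 16.6 FPKM in control libraries, with overlapping groups and a log2 fold change of -0.21 ± 0.16 (SE).

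None of the 78 genes differed between diabetic and control epithelium at an adjusted p below 0.05 (limma with Benjamini-Hochberg adjustment over 12149 genes). The smallest adjusted p among them was 0.366, and over all genes 8 (0.0658%) passed. At an unadjusted p below 0.05, 3 of the 78 were lower in diabetic libraries, against 6.91% of all genes tested, and 1 was higher, against 4.61%. None of the 78 reached 1.5-fold at that p, as 2.49% of all genes did. The share of the 78 that was lower was 3.85%, so neither it nor the single higher gene stood above the share of all genes.

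Mrpl58 (also known as Ict1, at chr11:115403752-115412674 on the plus strand in the GRCm38 positions of the table) encodes a peptidyl-tRNA hydrolase that frees stalled ribosomes and is built into the large subunit. It had 6.67, 5.32 and 5.00 FPKM in diabetic libraries and 7.615, 6.66 and 8.32 FPKM in control libraries. The groups met at 1 point, with diabetic replicate 1 just above control replicate 2. The log2 fold change was -0.36 ± 0.13 (SE), with an adjusted p of 0.366.

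Mrpl42 (chr10:95480805-95501940, minus strand), a large subunit protein found in mitochondria alone, had 22.0, 19.7 and 15.2 FPKM in diabetic libraries and 24.4, 23.9 and 24.2 FPKM in control libraries. The control libraries lay close together and all diabetic libraries lay below them. The log2 fold change was -0.35 ± 0.14 (SE), with an adjusted p of 0.401. Mrps22 (chr9:98588730-98601660, minus strand), a small subunit protein found in mitochondria alone, had 7.26, 6.42 and 6.17 FPKM in diabetic libraries and 8.28, 7.82 and 8.13 FPKM in control libraries. Its groups did not overlap either, and the log2 fold change was -0.26 ± 0.10 (SE), with an adjusted p of 0.396.

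Mrps6 (chr16:92058270-92112227, plus strand), the counterpart of bacterial S6, was the gene with an unadjusted p below 0.05 that was higher in diabetic libraries. It had 33.8, 30.5 and 34.3 FPKM in diabetic libraries and 26.9, 27.1 and 28.7 FPKM in control libraries, with no overlap. The log2 fold change was 0.24 ± 0.09 (SE), with an adjusted p of 0.394. Mrps6 and Slc5a3, the sodium and myo-inositol cotransporter that responds to osmotic stress, lie on the same strand and share 54% of the span of Mrps6. A further protein-coding model on that strand, Gm49711, covers 99.9% of the span and was not analysed here. Reads of the shared parts cannot be told apart by position. Slc5a3 had 1.64, 2.24 and 2.995 FPKM in diabetic libraries and 1.93, 1.71 and 1.43 FPKM in control libraries, so its groups overlapped and its level was far below that of Mrps6. How the counting divided their reads was not tested.

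Groups without overlap were found in 7 of the 78 genes with diabetic libraries lower, against 10.9% of all genes, and in 2 with diabetic libraries higher, against 6.68%. The lower ones were Mrpl42, Mrps22, Mrps21, Mrps14, Mrpl33, Mrpl44 and Mrpl10, and the higher ones were Mrps6 and Mrpl22. Mrps21, the counterpart of bacterial S21, had 66.4, 61.7 and 45.7 FPKM in diabetic libraries and 68.9, 69.2 and 79.3 FPKM in control libraries, with a log2 fold change of -0.33 ± 0.15 (SE) and an adjusted p of 0.449. Mrpl10, which anchors the stalk of Mrpl12, had 23.7, 22.9 and 17.8 FPKM in diabetic libraries and 23.7, 23.7 and 25.7 FPKM in control libraries. The nearest pair, diabetic replicate 1 and control replicate 1, differed only beyond the digits printed. The log2 fold change was -0.18 ± 0.13 (SE), with an adjusted p of 0.611.

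**Figure D2:**
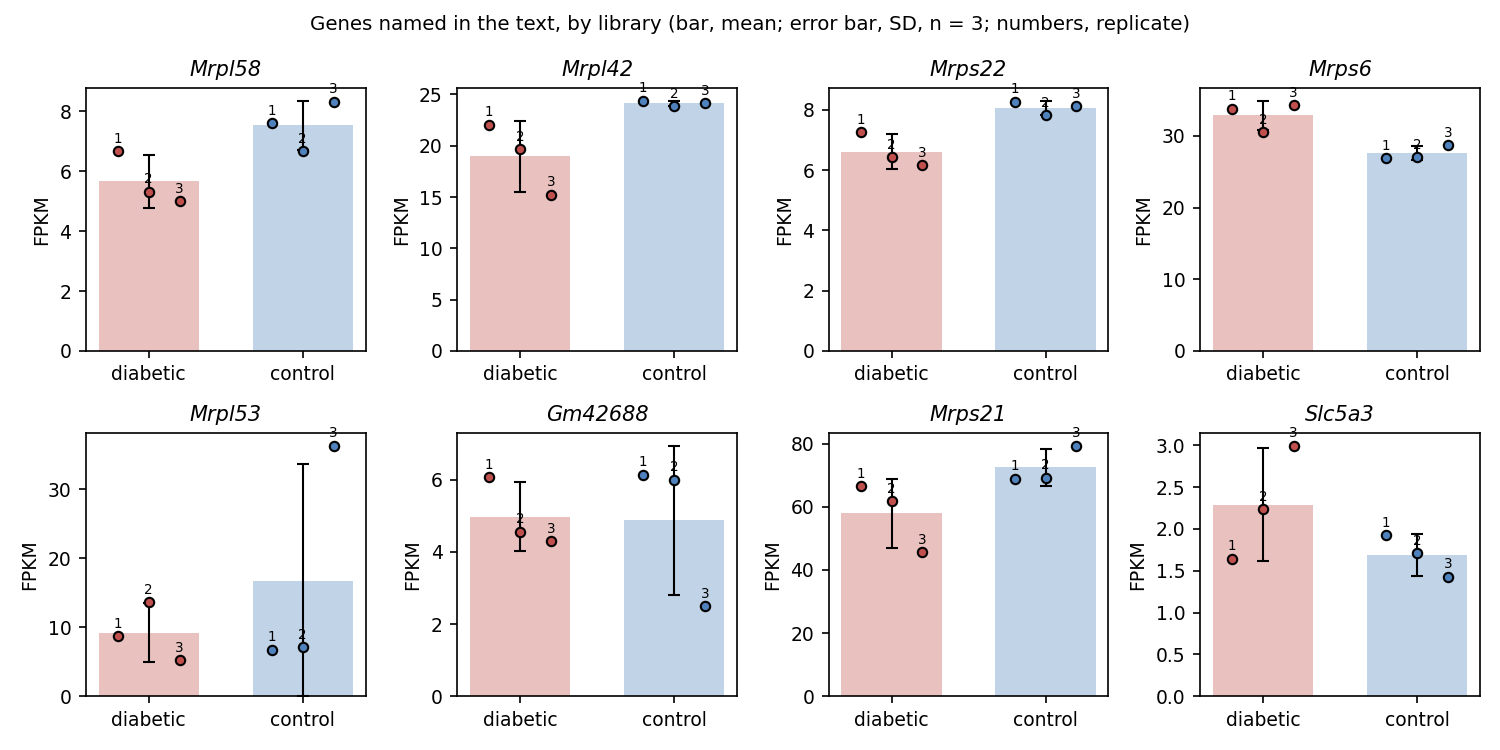
FPKM by library of 6 mitochondrial ribosomal protein genes and of Gm42688 and Slc5a3, which overlap Mrpl53 and Mrps6 on the same strand. Bars are means, error bars are SD (n = 3; stopped at 0 on the lower side), points are libraries with their replicate number, and each vertical axis starts at 0. Mrpl42, Mrps22 and Mrps21 are lower in all diabetic libraries, Mrps6 is higher in all of them, and Mrpl53 stands at 36.3 FPKM in control replicate 3 alone.

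Further genes with large fitted differences within their subunit, Mrpl53 aside, did not pass the test either. On the lower side Mrpl21, the counterpart of bacterial L21, had 23.4, 21.2 and 16.6 FPKM in diabetic libraries and 23.0, 24.2 and 28.8 FPKM in control libraries (log2 fold change -0.30, SE 0.15). Mrps15, the counterpart of bacterial S15, had 21.4, 17.5 and 12.6 FPKM in diabetic libraries and 21.3, 20.2 and 23.2 FPKM in control libraries (log2 fold change -0.34, SE 0.18). Mrps14, already named as a gene without overlap, had 18.8, 18.2 and 14.7 FPKM in diabetic libraries and 19.5, 19.98 and 22.7 FPKM in control libraries (-0.26, SE 0.12). In all 3 genes diabetic replicate 3 was the lowest library, and in Mrpl21 and Mrps15 diabetic replicate 1 reached the control range.

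On the higher side Mrpl2, a protein close to the peptidyl transferase centre in bacteria, had 23.9, 22.0 and 21.3 FPKM in diabetic libraries and 20.4, 15.5 and 23.9 FPKM in control libraries (log2 fold change 0.18, SE 0.16). Mrpl47 had 6.75, 6.06 and 5.49 FPKM in diabetic libraries and 5.615, 5.17 and 6.08 FPKM in control libraries (0.10, SE 0.11). The groups overlapped in both genes. Mrpl1 had 5.43, 4.13 and 3.88 FPKM in diabetic libraries and 4.02, 3.97 and 4.32 FPKM in control libraries (0.09, SE 0.13), and Mrps9 had 5.60, 5.69 and 6.05 FPKM in diabetic libraries and 5.78, 5.09 and 5.56 FPKM in control libraries (0.07, SE 0.10). Mrps18b, given with its family above, had 0.10. The adjusted p of the genes of both sides ran between 0.485 (Mrps14) and 0.837 (Mrps18b).

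Of genes picked for their place in the structure, Mrpl45, which sits at the exit tunnel facing the inner membrane, had 16.0, 15.2 and 13.6 FPKM in diabetic libraries and 18.4, 15.3 and 19.3 FPKM in control libraries (log2 fold change -0.22, SE 0.12). Mrps12 had 30.6, 22.2 and 19.4 FPKM in diabetic libraries and 27.1, 25.2 and 28.7 FPKM in control libraries (-0.18, SE 0.16). The groups overlapped in both, and the highest library for Mrps12 was diabetic replicate 1. Mrpl54, among the most abundant, had 69.1, 51.5 and 56.6 FPKM in diabetic libraries and 63.3, 61.6 and 81.1 FPKM in control libraries (-0.21, SE 0.15). Of the scarce genes, Mrpl15 had 4.10, 3.996 and 3.05 FPKM in diabetic libraries and 3.51, 3.77 and 3.83 FPKM in control libraries (-0.0041, SE 0.12), and Mrps30 had 4.17, 3.81 and 3.49 FPKM in diabetic libraries and 3.66, 3.42 and 4.74 FPKM in control libraries (-0.03, SE 0.13).

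Of the 78 genes, 66 (84.6%) had a fitted log2 fold change below 0, against 61% of all genes tested. Their median was -0.10, against -0.04 over all genes, and their range was -0.47 to 0.24. The 95% interval of the log2 fold change lay wholly within 1.5-fold in either direction for 70 of the 78 genes. Over all genes tested it did so for 9309 of 12149. The median half-width was 0.30, against 0.29 over all genes, so intervals of this width were common in these data. The genes share 6 libraries and are not independent of each other, so the count of 66 is a description of these libraries.

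**Figure D3:**
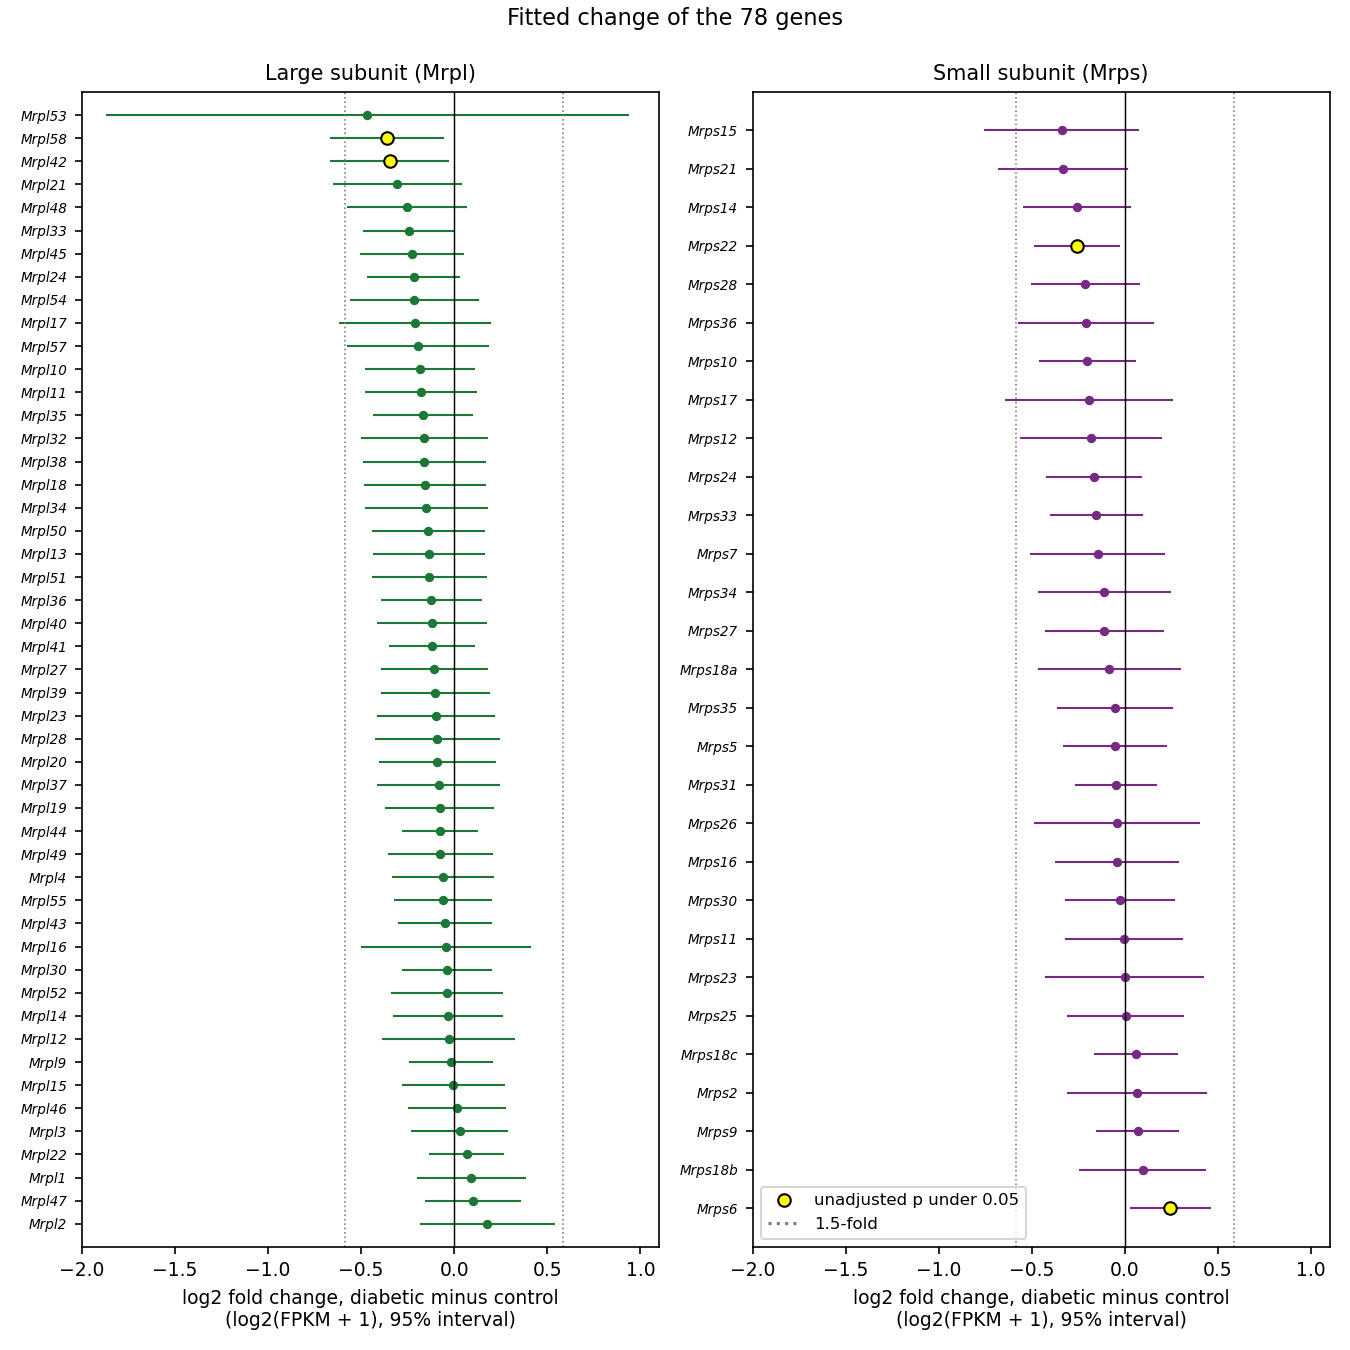
Fitted log2 fold change (diabetic minus control, on log2(FPKM + 1)) of the 49 large subunit genes and the 29 small subunit genes by symbol, with 95% intervals from limma. Yellow points mark the 4 genes with an unadjusted p below 0.05 and dotted lines mark 1.5-fold. Most points lie left of 0, 70 of 78 intervals stay between the dotted lines, and the widest interval belongs to Mrpl53.

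The subunits were compared next. Of the 49 large subunit genes 43 had a log2 fold change below 0, with a median of -0.11, and of the 29 small subunit genes 23 did, with a median of -0.08. The difference between these medians, large minus small, was -0.02. With Mrps30 and Mrps18a counted as large and Mrps36 left out, it was also -0.02. In libraries, the median deviation from the control mean was 0.04, -0.10 and -0.29 in diabetic libraries and -0.05, -0.07 and 0.12 in control libraries for the large subunit. For the small subunit it was 0.11, -0.10 and -0.26 in diabetic libraries and -0.05, -0.09 and 0.13 in control libraries. The subunits kept close to each other in each library and differed less between themselves than libraries of 1 group did.

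By class, 36 of 45 genes with a bacterial counterpart had a log2 fold change below 0 (median -0.10). Of the 31 genes classed as mitochondrial only, 28 did (median -0.11). At an unadjusted p below 0.05, 0 of the 45 and 3 of the 31 (9.68%) were lower, against 6.91% of all genes tested, and the difference between the classes was not tested. Log2 fold change had a Spearman correlation across the 78 genes of 0.13 with transcript length, of -0.08 with mean level and of 0.01 with GC content, so it followed none of them closely.

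Libraries of 1 group differed from each other as much as the groups did. The median over the 78 genes of the log2 deviation from the control mean was 0.07, -0.10 and -0.27 in diabetic libraries and -0.05, -0.08 and 0.12 in control libraries. Diabetic replicate 1 thus stood above 2 of the control libraries, diabetic replicate 2 lay just below the lowest of them and diabetic replicate 3 well below it. The medians were also taken as deviations from the mean of all 6 libraries. On that scale the mean of the diabetic medians was 0.11 below that of the control medians. The SD was 0.17 over diabetic libraries and 0.11 over control libraries. The difference between the groups was no larger than the spread between pools.

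Single libraries held most of the extremes. Of the 78 genes, 59 (75.6%) had their lowest level in diabetic replicate 3, against 5138 of 12149 genes tested, and 46 (59.0%) had their highest level in control replicate 3, against 1987 of 12149. A further 19 (24.4%) had their highest level in diabetic replicate 1, close to the share of all genes (2598 of 12149, 21.4%). Diabetic replicate 3 was low for genes in general, with a median deviation of -0.13 over all genes tested, whereas control replicate 3 was not high in general, at -0.02. The 78 genes made up 0.533%, 0.474% and 0.448% of the FPKM total in diabetic libraries and 0.490%, 0.483% and 0.563% in control libraries, so the order of the libraries was the same in shares.

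**Figure D4:**
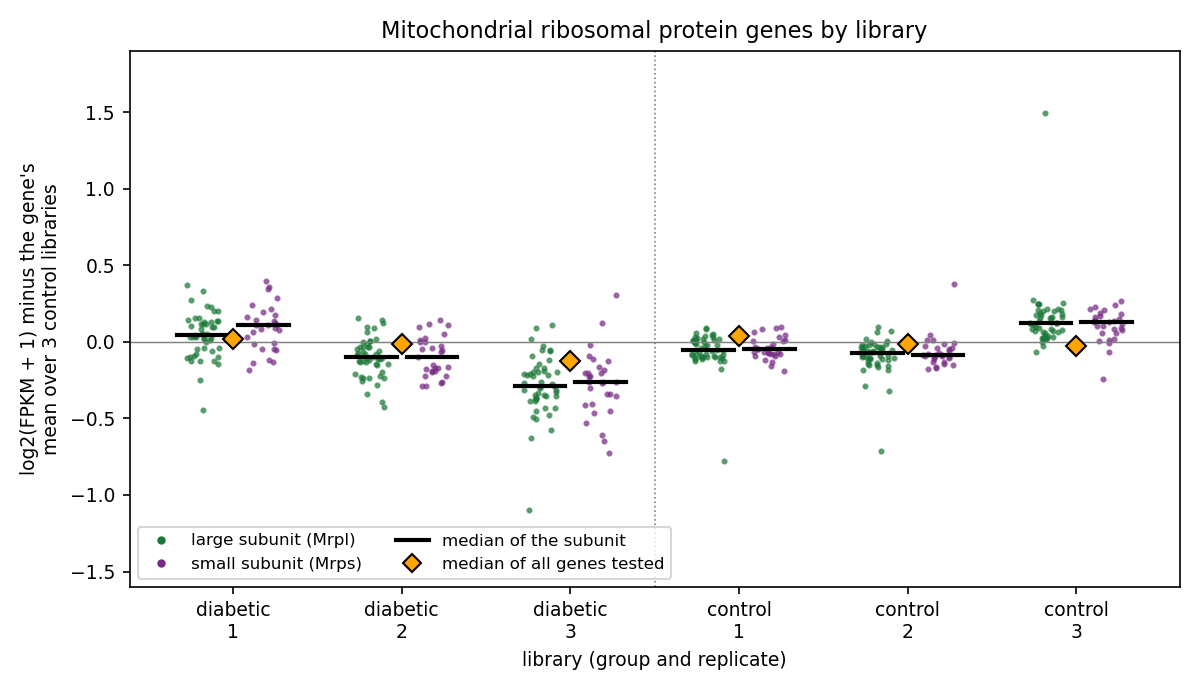
Log2(FPKM + 1) of each gene minus its mean over the 3 control libraries, by library, for 49 large subunit and 29 small subunit genes. Black bars are subunit medians and diamonds are medians of the 12149 genes tested. Both subunits are lowest in diabetic replicate 3 and highest in control replicate 3, and the subunit medians of a library lie close together, while the highest single point is Mrpl53 in control replicate 3.

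Leaving out both of these libraries, a pair chosen after seeing the data, changed the direction of the family median. Leaving out either one alone brought it closer to 0 without changing its sign. Without diabetic replicate 3 the median log2 fold change was -0.02, with 43 of 78 genes below 0, against 50% of all genes. Without control replicate 3 it was -0.05, with 49 of 78 below 0, against 62.4% of all genes. Without both it was 0.04, with 29 below 0 and 49 above, against 53.5% of all genes below 0. In that fit no gene was lower, against 5.05% of all genes, and 1 was higher, against 4.3%, at an unadjusted p below 0.05. Without diabetic replicate 1 the median was -0.21, with 71 of 78 below 0, against 65.2% of all genes. In that fit 12 of the 78 were lower at an unadjusted p below 0.05, against 10.8% of all genes. In none of these fits did any of the 78 pass the adjusted threshold. Under median-of-ratios scaling, which centres the median of all genes, 53 of the 78 had a log2 fold change below 0, against 49.8% of all genes. Their median was -0.05.

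Mrpl53, a large subunit protein of mitochondria alone, had the largest fitted difference and the least even values. It had 8.72, 13.6 and 5.21 FPKM in diabetic libraries and 6.73, 7.11 and 36.3 FPKM in control libraries, so control replicate 3 stood apart and the groups overlapped. The log2 fold change was -0.47 ± 0.60 (SE), with an adjusted p of 0.803, and it was 0.28 without control replicate 3. The whole of Mrpl53 (chr6:83109040-83109939, plus strand, as the table gives it) lies within Gm42688, a longer protein-coding gene model on the same strand. Gm42688 had 6.08, 4.56 and 4.30 FPKM in diabetic libraries and 6.14, 6.00 and 2.499 FPKM in control libraries, and was lowest in the library where Mrpl53 was highest. Whether the counting moved reads between these models was not tested.

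Overlap with a protein-coding gene on the same strand was found for 4 of the 78 genes. Beside Mrpl53 and Mrps6 these were Mrps24, which overlaps Urgcp, and Mrps34, which overlaps Nme3, a nucleoside diphosphate kinase. Urgcp had 4.63, 4.82 and 3.94 FPKM in diabetic libraries and 3.06, 3.19 and 3.49 FPKM in control libraries, higher without overlap (log2 fold change 0.36, adjusted p 0.296). Nme3 had 2.96, 5.43 and 3.67 FPKM in diabetic libraries and 5.98, 6.51 and 5.72 FPKM in control libraries, lower without overlap (-0.52, adjusted p 0.334). Mrps24 and Mrps34 themselves had overlapping groups, with log2 fold changes of -0.16 ± 0.11 and -0.11 ± 0.15 (SE). A gene on the opposite strand overlapped 36 of the 78. The library kit keeps the strand, but whether the counting used it is not given in the sources used here.

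The remaining proteins of the mitoribosome carry other names, and 5 of them were in the list drawn up for this purpose. All 5 had a log2 fold change below 0 (61% of all genes did), with a median of -0.21. At an unadjusted p below 0.05, 1 was lower, as 6.91% of all genes were. This was Chchd1, a small subunit protein, with 57.5, 49.7 and 43.0 FPKM in diabetic libraries and 55.5, 63.1 and 69.8 FPKM in control libraries, a log2 fold change of -0.32 ± 0.14 (SE) and an adjusted p of 0.422. Its groups overlapped through diabetic replicate 1. Dap3, a GTP-binding small subunit protein first known from studies of cell death, had 7.64, 8.29 and 7.66 FPKM in diabetic libraries and 7.87, 8.33 and 7.81 FPKM in control libraries, and its log2 fold change was -0.02 ± 0.09 (SE).

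Genes that build and serve the mitoribosome had lower fitted values about as often as all genes did. Of 24 tested assembly and rRNA modification genes, 15 (62.5%, against 61% of all genes) had a log2 fold change below 0, with a median of -0.03. At an unadjusted p below 0.05 none was lower and 1 was higher, against 6.91% and 4.61% of all genes. The higher gene was Mrm2, a methyltransferase of the large mitochondrial rRNA. Mrm2 had 5.65, 4.68 and 6.11 FPKM in diabetic libraries and 4.45, 3.51 and 4.51 FPKM in control libraries, without overlap, and a log2 fold change of 0.33 ± 0.13 (SE, adjusted p 0.399). Of 14 translation factors, none was lower and 1 was higher, Mtrf1l, the release factor that ends translation at ordinary stop codons. Mtrf1l had 2.72, 3.27 and 2.37 FPKM in diabetic libraries and 1.96, 1.76 and 2.32 FPKM in control libraries (log2 fold change 0.33, adjusted p 0.390).

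Of 20 genes for charging mitochondrial tRNAs, 1 was lower (5%, against 6.91% of all genes) and none was higher. This was Gatb, a subunit of the amidotransferase that completes glutaminyl-tRNA, with 1.73, 1.87 and 1.35 FPKM in diabetic libraries and 2.39, 2.28 and 2.15 FPKM in control libraries (log2 fold change -0.31, adjusted p 0.352). None of 6 genes of mitochondrial transcription passed that limit in either direction, with a median of -0.08. None of 8 tested regulators did, with a median of -0.05 and a range of -0.18 to 0.45. Of the 8, 1 was higher without overlap, against 6.68% of all genes, and 0 were lower without overlap, against 10.9%. Among these, Gabpa, whose protein binds the ETS string, had 9.48, 9.43 and 7.63 FPKM in diabetic libraries and 10.7, 8.32 and 9.95 FPKM in control libraries. Yy1 had 12.3, 10.4 and 9.03 FPKM in diabetic libraries and 10.7, 10.4 and 10.7 FPKM in control libraries. Both sets of values overlapped between the groups.

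Other families were set beside the mitoribosome for comparison. The 74 nuclear-encoded respiratory chain genes had median deviations of -0.02, -0.15 and -0.30 in diabetic libraries and -0.05, -0.04 and 0.10 in control libraries. They were lowest in diabetic replicate 3 for 56 genes (75.7%), against 42.3% of all genes tested. They were highest in control replicate 3 for 50 (67.6%), against 16.4%. At an unadjusted p below 0.05, 10 were lower (13.5%, against 6.91% of all genes) and 1 was higher, against 4.61%. Groups without overlap were found in 16 with diabetic libraries lower, against 10.9% of all genes, and in 1 with them higher, against 6.68%. The 77 cytosolic ribosomal protein genes had median deviations of -0.07, -0.14 and -0.16 in diabetic libraries and -0.05, -0.02 and 0.06 in control libraries. Of these, 59 (76.6%) were highest in control replicate 3 and 42 (54.5%) were lowest in diabetic replicate 3. At an unadjusted p below 0.05, 16 were lower (20.8%) and none was higher. Diabetic libraries were lower without overlap in 40 of the 77 genes and higher without overlap in none. These families thus had their extremes in the same libraries as the mitoribosome. In the cytosolic list all 3 diabetic medians also lay below all 3 control medians. This was not so for the mitoribosome or the respiratory chain list. None of the genes of these families passed the adjusted threshold.

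The 13 proteins encoded in mitochondrial DNA, which the mitoribosome translates, followed another order of libraries. Their median deviations were -0.36, -0.31 and -0.43 in diabetic libraries and 0.09, 0.07 and -0.17 in control libraries. All 3 diabetic medians lay below all 3 control medians, as in the cytosolic ribosomal list. Unlike in that list, control replicate 3 was the lowest control library here and not the highest. At an unadjusted p below 0.05, 12 of the 13 were lower (92.3%, against 6.91% of all genes) and none was higher. None of the 13 passed the adjusted threshold. The median log2 fold change was -0.37. It was that of mt-Cytb, the complex III subunit, with 2409.5, 2505 and 2292 FPKM in diabetic libraries and 3403, 3247 and 2689 FPKM in control libraries (SE 0.09, adjusted p 0.236). The exception was mt-Nd6, the complex I subunit encoded on the other strand, with 93.8, 81.3 and 109 FPKM in diabetic libraries and 82.5, 86.0 and 111 FPKM in control libraries (log2 fold change 0.02). These transcripts come from 2 long precursors of 1 genome and are not independent of each other.

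**Figure D5:**
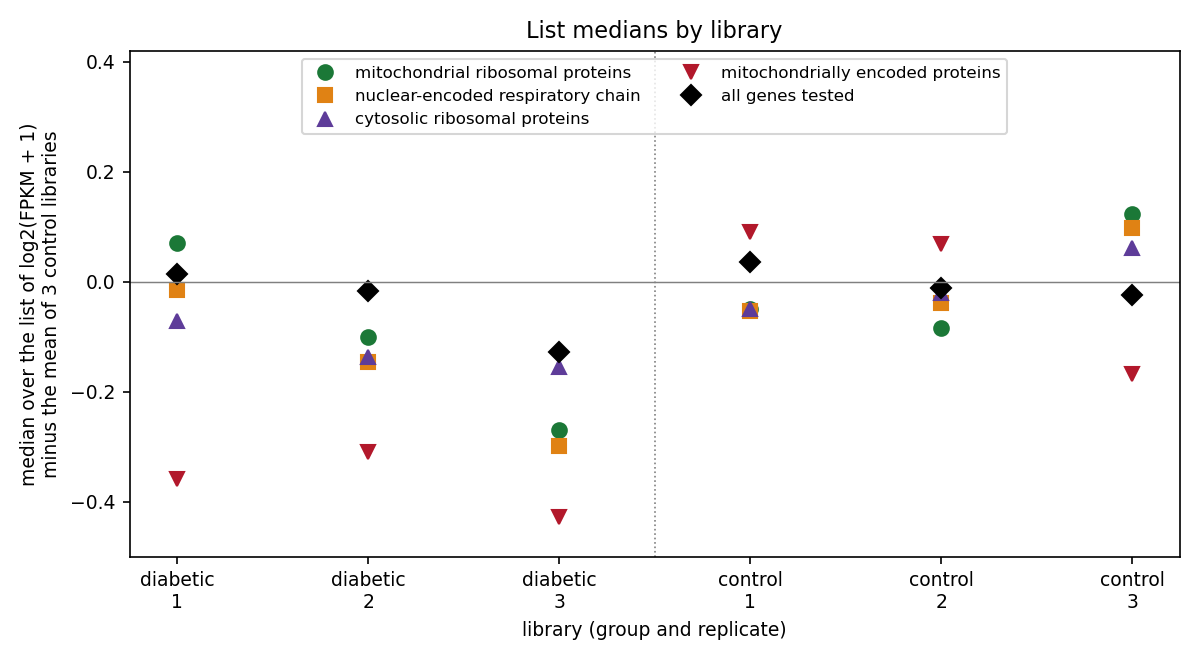
Median over each list of log2(FPKM + 1) minus the gene's mean over the 3 control libraries, for 78 mitochondrial ribosomal protein genes, 74 nuclear-encoded respiratory chain genes, 77 cytosolic ribosomal protein genes, 13 mitochondrially encoded proteins and the 12149 genes tested. The mitoribosomal, respiratory chain and cytosolic ribosomal lists are lowest in diabetic replicate 3 and highest in control replicate 3. The cytosolic ribosomal and mitochondrially encoded lists are lower in each diabetic library than in any control library. The mitochondrially encoded list is lower in control replicate 3 than in the other control libraries.

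Short transcripts as a whole leaned the same way in these libraries, by less. In the 2422 genes tested with the shortest transcripts (66 to 1676 bases), the median deviation was 0.02, -0.05 and -0.15 in diabetic libraries and -0.02, -0.03 and 0.05 in control libraries. The 2418 genes with the longest transcripts (4938 to 27910 bases) stood at -0.01, -0.01 and -0.12 in diabetic libraries and at 0.07, 0.01 and -0.09 in control libraries. Between these sets control replicate 3 differed in sign, and the 78 genes, with a median length of 1328 bases, stood at 0.12 there. The part of transcript length in their pattern was not tested.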

How the data were processed

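Gene expression was measured in 6 libraries of polyadenylated RNA, 3 diabetic and 3 control, grouped and numbered by their titles. Per the labels, libraries were made with a stranded kit (KAPA) and sequenced on an Illumina NovaSeq. The submitters' processing notes name FastQC, cutadapt, HISAT2 and StringTie, without versions, and GRCm38. The deposited table holds FPKM of protein-coding genes as the authors computed them. No column of per-sample values was left out.

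Of 14968 genes, 374 were at 0 in all libraries. Genes with a mean of at least 0.5 FPKM in either group were kept, which left 12149. The scale of the test was log2(FPKM + 1). The tool was limma 3.58.1 in R 4.3.3, as a moderated two-sided linear model of group with an intensity trend and Benjamini-Hochberg adjustment over all 12149 genes at 0.05. The pseudocount of 1 shrinks the changes of low genes. Whole reads could not be recovered, since only 23.5% to 38.2% of low values of single-exon genes lay within 2% of a whole step, so no count test was used.

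The genes and lists were chosen with earlier results of these data known. Genes were named by a fixed rule, which took those with an unadjusted p below 0.05, the 3 largest changes in each direction per subunit, the 5 highest and 5 lowest levels, and 10 chosen for their place in the structure. Chosen beyond it, after their values were seen, were Mrpl33, Mrpl44 and Mrpl22 as genes without overlap, the gene models that overlap these genes, and Mrpl21, Mrps24, Mrps34, Dap3, Gabpa, Yy1 and mt-Nd6. Subunit and class follow the mitoribosome structure as commonly known.

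All 78 genes were found in GENCODE M21, 72 of them (92.3%) at identical positions. That annotation gave lengths (the longest protein-coding transcript of each gene), overlaps and neighbours. Promoters came from RefSeq. The alternatives were other pseudocounts, filters and scalings, no trend, library weights, a replicate block and leaving out libraries. The replicate numbers are not known to pair the libraries. The paper states that its screens were made on paired samples, without saying what was paired.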

Additional observations from a re-analysis of the deposited data

How the results depend on the processing

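None of the 78 genes passed the adjusted threshold under any of the 16 alternatives. Named genes outside the 78 were not followed singly through these alternatives. Of 432 values of 27 named genes among the 78, 422 moved by less than 1 residual SD. The sign was the other one for 44, mostly of fold changes near 0. The number of genes past the adjusted threshold among all tested was 8, and it was 1 with no filter, 5 under quantile normalization, 3 with limma without trend, 129 with library weights and 1 without control replicate 3 and diabetic replicate 3, a pair left out after seeing the data. Leaving out 1 library at a time gave 1 to 66, with the 66 without diabetic replicate 1. The 3 mitochondrial ribosomal genes lower at an unadjusted p below 0.05 became 5 under quantile normalization (7.14% of all genes) and 0 without both libraries (5.05%), and 0 to 12 when 1 library was left out (3.7% to 10.8%). The 1 higher gene became 0 to 1. With a replicate block, 3 genes of all tested passed, and 1 of the 78 was lower and 0 were higher (6.12% and 4.17% of all genes). Same-numbered libraries had deviations correlated at -0.198, 0.056 and -0.0862, and whether the number marks a pair is not known. The difference of the subunit medians lay between -0.045 (without control replicate 2) and 0.0069 (without diabetic replicate 1) when 1 library was left out. Scaling lowered the count of the 78 with a log2 fold change below 0 from 66 to 58 (TPM), 54 (quantile) and 53 (median of ratios). The share of all genes tested below 0 fell as well, from 61% to 53.5%, 52.1% and 49.8%. Fold changes of over 0.1 in size that changed sign were those of Mrpl53 (0.26 with library weights, 0.28 without control replicate 3, 0.59 without both), Mrps17 (0.02 without diabetic replicate 3, 0.12 without both) and Mrpl18 (0.06 without both). The causes were not tested. The depth per library is unknown, so counting error cannot be given, and with 3 pools a group the median 95% half-width of 0.30 on the log2 scale limits what could be seen.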
